A study of Mus musculus with 4 samples.

Results

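The globin genes of the mouse lie in a beta cluster on chromosome 7 and an alpha cluster on chromosome 11, and the CTCF peaks in and around both clusters are described here. Peaks were taken from the deposited B cell and plasmablast CTCF lists (build mm9) if their midpoint fell in chr7:110750000-111250000, the beta globin window, or in chr11:31950000-32400000, the alpha globin window. This gave 24 of the 36381 B cell peaks and 26 of the 31086 plasmablast peaks, which form 28 sites of 42765 in all. The beta window held 6 of these sites and the alpha window 22. B cells came from spleens of C57BL/6 mice aged 6 weeks as the fraction lacking CD43. Plasmablasts were spleen cells of C57BL/6 mice aged 6 weeks sorted for CD138, 3 days after a retro-orbital dose of 50 µg LPS (lipopolysaccharide, which activates B cells). B cells and plasmablasts were each represented by a single CTCF library with its input, the inputs are not analysed here, and whether animals were pooled is not given in the sources used here. A peak list holds no expression values, so the labelled cell types could not be checked against marker genes.

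CTCF is a zinc finger protein that binds DNA at a long, strand-specific motif and acts as an insulator and as an anchor of chromatin loops formed with cohesin. Globin genes are expressed in erythroid cells and are silent in the B lineage. The beta cluster holds the embryonic gene Hbb-y and the adult beta genes, is driven by an upstream locus control region, and sits inside an array of olfactory receptor genes. Hbb-b1 and Hbb-b2 are the adult genes of one haplotype, and C57BL/6 mice carry the other, whose adult genes are named Hbb-bs and Hbb-bt. In the alpha cluster, Hba-x is the embryonic gene, Hba-a1 and Hba-a2 are the adult genes, and the erythroid enhancers lie largely in introns of the neighbouring gene Nprl3. Hbq1a and Hbq1b are theta-like globin genes, one beside each adult alpha gene.

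Gene order was taken from RefSeq (GRCm38.p6). No position from it is set against the mm9 peaks, though the spacing of Hbq1b and Hbq1a is compared with that of peaks. Along chromosome 7 the order is Olfr69, Olfr68, Olfr67, Hbb-bt, Hbb-bs, Hbb-bh3, Hbb-bh2, Hbb-bh1, Hbb-y, Olfr66, Olfr64 and Olfr65, so olfactory receptor genes adjoin the globin genes on both sides. Chromosome 11 has the order Il9r, Snrnp25, Rhbdf1, Mpg, Nprl3, Hba-x, Hba-a1, Hbq1b, Hba-a2, Hbq1a and Sh3pxd2b. The flanking genes there encode, among others, an interleukin 9 receptor (Il9r), a spliceosomal protein (Snrnp25), a DNA repair glycosylase (Mpg) and a regulator of mTORC1 signalling (Nprl3). Hbb-b1 and Hbb-b2 are listed in that table apart from the chromosome 7 cluster. Polr3k and Luc7l, also on the list of genes looked up, are on chromosomes 2 and 17.

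Promoters were searched for a core of the CTCF motif, because no mm9 sequence was used here and the peaks themselves could not be read. Of 25 globin and flanking genes, 20 had a promoter in the RefSeq table, 9 of them globin genes. The core was spelled CCNNNAGGNGGC, was the only motif searched, and was looked for on both strands of the 250 bases before the start site. It was found in 3 of the 20 promoters, those of Hbq1b, Hbq1a and the olfactory receptor gene Olfr66, and in 2.93% of all 32851 promoters of the table (964). None of the other 7 globin promoters, among them those of Hba-a1, Hba-a2, Hbb-y, Hbb-bs and Hbb-bt, held these letters. The 3 sequences with a match are shown 5′ to 3′ on the strand of the gene with the match in capitals. On GRCm38.p6 they are chr11:32286714-32286963 (plus strand) for Hbq1b, chr11:32299819-32300068 (plus strand) for Hbq1a and chr7:103882242-103882491 (minus strand) for Olfr66.
Hbq1b: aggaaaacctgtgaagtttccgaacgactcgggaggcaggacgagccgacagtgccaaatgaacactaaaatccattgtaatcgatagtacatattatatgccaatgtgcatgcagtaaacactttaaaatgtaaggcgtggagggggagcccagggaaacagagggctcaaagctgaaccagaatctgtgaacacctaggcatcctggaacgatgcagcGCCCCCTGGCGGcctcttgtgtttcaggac
Hbq1a: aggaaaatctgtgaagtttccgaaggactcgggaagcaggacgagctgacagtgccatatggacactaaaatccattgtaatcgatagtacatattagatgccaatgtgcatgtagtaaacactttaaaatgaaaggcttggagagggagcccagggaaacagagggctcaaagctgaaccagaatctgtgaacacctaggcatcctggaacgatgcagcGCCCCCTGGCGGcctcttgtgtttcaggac
Olfr66: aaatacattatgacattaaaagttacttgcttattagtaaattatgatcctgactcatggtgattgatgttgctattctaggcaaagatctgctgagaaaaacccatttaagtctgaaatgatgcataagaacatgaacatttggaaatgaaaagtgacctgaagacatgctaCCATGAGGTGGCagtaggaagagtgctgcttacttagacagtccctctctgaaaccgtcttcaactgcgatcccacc
In Hbq1b and Hbq1a the core lies on the strand opposite to the gene, where it reads CCGCCAGGGGGC, and ends 18 bases before the start site. In Olfr66 it lies on the gene's strand as CCATGAGGTGGC, 65 bases before the start site. The Hbq1b and Hbq1a sequences differ at 11 of 250 bases (95.6% identical), and the last 105 bases before the start site, which include the core, are the same in both. Over 247 aligned bases the promoters of Hba-a1 and Hba-a2 are 100% identical, whereas those of Hbb-bs and Hbb-bt are 77.4% identical. Reads from such duplicated stretches cannot always be assigned to 1 copy, and how the authors treated them is not given in the sources used here. A match describes the letters of a promoter and does not show a bound site. Which peaks lie at which of these genes was not determined, since the builds differ.

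The first question was whether sites at these loci were listed in both cell types. In the beta window all 4 B cell peaks overlapped a plasmablast peak by at least 1 bp, against 67.9% of the whole B cell list. Of the 6 plasmablast peaks there, 4 overlapped a B cell peak, against 79.5% of the whole plasmablast list. In the alpha window 18 of 20 peaks of either list were shared (90%). The exact 95% intervals (Clopper-Pearson) allow for counting error alone and take peaks as independent. They were 39.8 to 100% and 22.3 to 95.7% for the beta window. For the alpha window the interval was 68.3 to 98.8%. Over both windows 2 of 24 peaks were in B cells only, against 32.1% of the whole list, and 4 of 26 were in plasmablasts only, against 20.5%. The B cell count depended on the limits used. With the windows widened by 100 kb on both sides, 8 of 36 peaks (22.2%) were in B cells only. Among peaks above the median score of each list, 4 of 16 were (25%), against 31.9% of all such B cell peaks. Peak strength bears on these shares, since stronger peaks were more often shared in both lists. If each peak were shared as often as its decile of score in its own list, 4.56 of the 24 B cell peaks would be unshared, and 2 were. Of the 26 plasmablast peaks 4.73 would be unshared on the same reckoning, and 4 were. With 1 library per cell type there is no replicate spread and no test between the cell types.

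**Figure D1:**
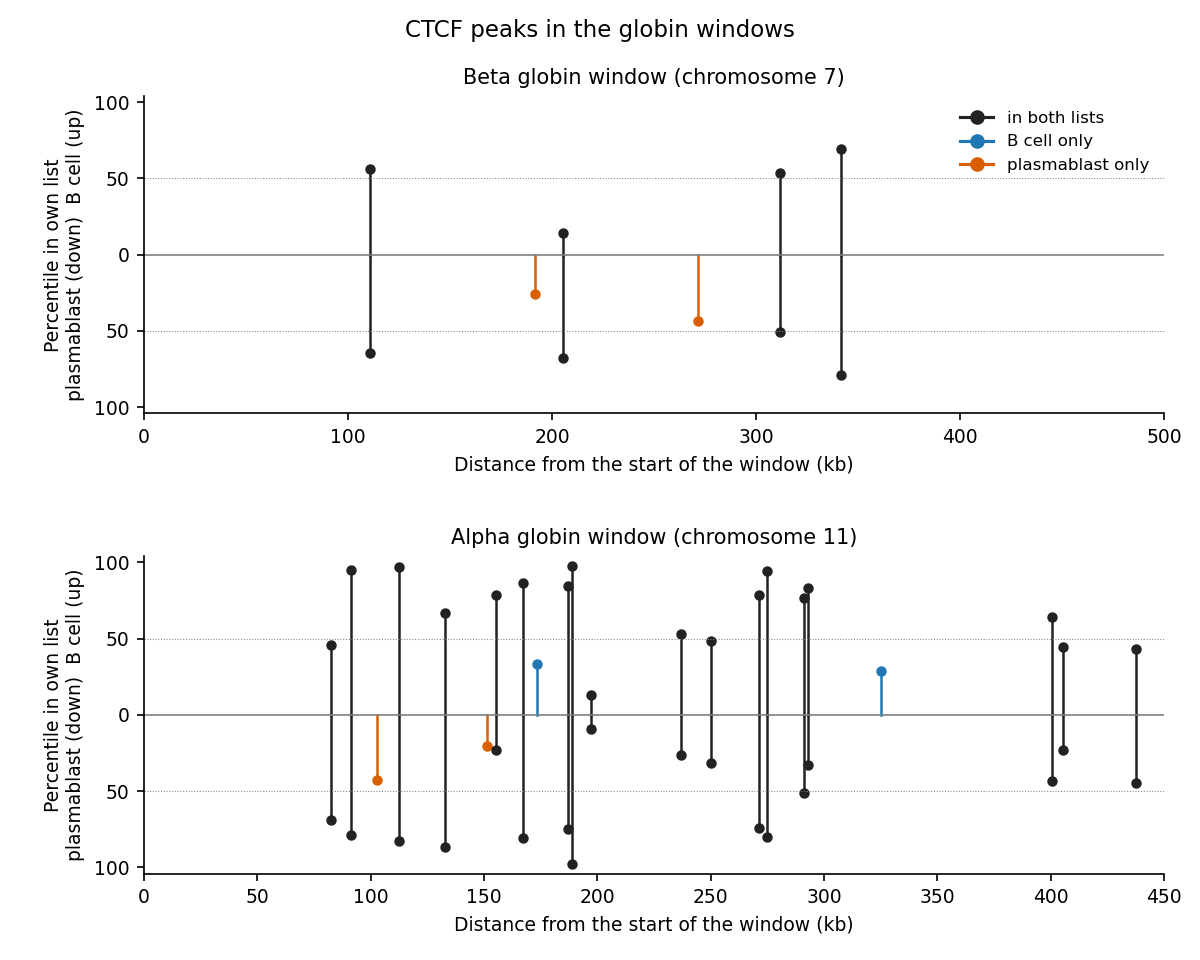
CTCF peaks along the beta globin window (top) and the alpha globin window (bottom), with the distance from the start of the window in kb on the x axis. Each line is a peak, drawn up to its percentile by score in the B cell list and down to its percentile in the plasmablast list; dotted lines mark the 50th percentile, and colours mark sites in both lists, in B cells only or in plasmablasts only. The 6 unshared peaks all stop short of the 50th percentile, and in both whole lists too weaker peaks were less often shared.

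Strength is given as the authors' peak score and as the percentile of a peak in its own list, the percentage of that list's peaks with an equal or lower score. The unit of the score is not stated, so scores of the 2 lists are not compared, and a percentile that differs between lists of different length does not show a change of binding. The B cell libraries were sequenced on a Genome Analyzer II and the plasmablast libraries on a HiSeq instrument. Cell type and instrument therefore cannot be told apart, and neither library's depth is known.

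The beta globin window held 4 B cell and 6 plasmablast peaks, and its strongest site in both lists was the last on the distal side, toward higher coordinates. This site, chr7:111091299-111091603 in B cells, had a score of 118.6 (69.2nd percentile). Its plasmablast peak, chr7:111091371-111091549, scored 41.1 (78.8th percentile). The neighbouring shared site, 29.7 kb to the proximal side at chr7:111061555-111061859, scored 69.5 in B cells (53.6th percentile) and 19.8 in plasmablasts (50.7th). At the opposite end of the occupied stretch, chr7:110860604-110860908 scored 76.9 in B cells (56.5th percentile) and 28.8 in plasmablasts (64.5th). These 3 sites lay in the upper part of both lists, near or somewhat above the middle.

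The remaining shared site of the beta window stood at unlike places in the lists. At chr7:110955444-110955748 the B cell peak scored 20.4, at the 14.4th percentile, and was the lowest of the 4 in B cells. Its plasmablast peak at chr7:110955496-110955674 scored 31.2, at the 67.5th percentile, and was second in the window. The difference of 53.1 percentile points was at or above that of 99.3% of all 24702 shared sites. The midpoints of these peaks lay 11 bp apart, so both lists place the site at nearly the same position. It was singled out after its values were seen.

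Both unshared peaks of the beta window were in plasmablasts, and both lay below the median of their list. The one at chr7:111021718-111021896 scored 16.0 (43.5th percentile) and was 39.9 kb from the nearest B cell midpoint. The other, chr7:110941484-110941662, scored 9.8 (25.8th percentile). It lay 14.0 kb from the shared site that ranked low in B cells. Between the shared sites at chr7:110860604-110860908 and chr7:111061555-111061859 there was thus 1 B cell peak, of low rank, and there were 3 plasmablast peaks. Those shared sites, 201 kb apart in B cells, were neighbours among B cell peaks above the list's median.

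Beyond the window the proximal side was empty over a long distance. The nearest B cell peak outside it, chr7:109900643-109900947, lay 960 kb from the first peak inside. In plasmablasts the corresponding distance was 792 kb, to chr7:110068247-110068425. These peaks scored 22.2 and 19.2 (17.7th and 49.8th percentiles) and neither was shared. On the distal side the next B cell peak, chr7:111315691-111315995, was 224 kb away and scored 25.9 (23.1st percentile). The next plasmablast peak there, chr7:111348420-111348598, was 257 kb away, scored 85.5 (99.1st percentile) and was shared. Of all distances between neighbouring autosomal peaks, 89.2% in B cells were shorter than the longest inside the window (106 kb). In plasmablasts the longest inside was 80.9 kb, and 80.5% were shorter.

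The alpha globin window was the denser of the 2, with 20 peaks in either list. Its strongest site was the same in both lists, chr11:32138522-32138826, with a B cell score of 276.9 (97.9th percentile). The plasmablast peak, chr11:32138569-32138747, scored 75.1 (97.8th percentile). A second shared site lay only 1.47 kb to its proximal side, at chr11:32137053-32137357, with scores of 186.2 in B cells (84.4th percentile) and 37.6 in plasmablasts (74.9th). Together they form a close pair of high rank in both lists.

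On the distal side of this pair the peaks were of middle or low rank for 82.7 kb. The stretch held 3 shared sites and no unshared peak. The first, chr11:32147105-32147409, was the lowest of the window in both lists, with scores of 19.4 (12.8th percentile) and 6.1 (8.92nd). The other 2 lay 13.1 kb apart and had like values. At chr11:32186714-32187018 the scores were 67.6 in B cells (52.8th percentile) and 10.0 in plasmablasts (26.4th). At chr11:32199822-32200126 they were 58.3 (48.5th) and 11.4 (31.4th). The GRCm38.p6 starts of the Hbq1b and Hbq1a promoters, 32286714 and 32299819, are spaced much like these 2 sites. Whether the sites lie at those promoters was not determined, since the builds differ. Reads from such duplicated sequence cannot always be assigned to a given copy, and whether this bears on the like values was not tested. The highest percentiles in the stretch were thus 52.8 in B cells and 31.4 in plasmablasts. It was picked as the longest stretch in the window between neighbouring plasmablast peaks above their list's median. Low plasmablast percentiles inside it follow from that choice. By the same rule the longest B cell stretch was another, 107 kb between the peaks starting at 32242773 and 32350227.

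A further pair of strong shared sites, 3.43 kb apart, closed this stretch. At chr11:32221250-32221554 the B cell score was 159.3 (78.8th percentile) and the plasmablast score 36.9 (74.3rd). At chr11:32224682-32224986 the scores were 243.6 (94.3rd) and 42.5 (80.1st). The third close pair followed, 1.65 kb apart, and there the lists ranked the sites less alike. At chr11:32241122-32241426 the scores were 148.2 (76.3rd) and 19.9 (51.0th). At chr11:32242773-32243077 they were 180.6 (83.2nd) and 11.9 (33.0th), a difference of -50.3 percentile points that 2.58% of all shared sites matched or went below. The B cell order within this pair was the reverse of the plasmablast order.

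The proximal part of the alpha window held 6 shared sites before the strongest pair, 3 of them high in both lists. At chr11:32062201-32062505 the scores were 264.9 in B cells (96.8th percentile) and 45.4 in plasmablasts (82.7th). At chr11:32041068-32041372 they were 250.1 (95.1st) and 41.3 (78.9th). At chr11:32116895-32117199 they were 196.4 (86.4th) and 43.1 (80.6th). The lowest percentile among these 3 sites was 78.9. A pair of other sites stood higher in the plasmablast list than in the B cell list. The site at chr11:32082544-32082848 scored 109.3 in B cells (66.9th) and 50.4 in plasmablasts (86.8th), which made it second in the window in plasmablasts and 11th in B cells. The outermost site, chr11:32032201-32032505, scored 52.8 (45.5th) and 32.2 (68.8th). The sixth went the other way and had the widest gap of the 22 shared sites of both windows. At chr11:32104956-32105260 the B cell peak scored 158.4 (78.5th) and its plasmablast peak, chr11:32105034-32105212, scored 9.1 (23.1st). That is -55.4 percentile points, which 1.40% of all shared sites matched or went below. This site and the alpha site at -50.3 points were singled out after their values were seen.

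The distal end held 3 shared sites of middle or low rank. At chr11:32350227-32350531 the scores were 100 in B cells (64.2nd) and 16.0 in plasmablasts (43.5th). At chr11:32355362-32355666 they were 50.9 (44.5th) and 9.1 (23.1st), and at chr11:32387494-32387798 they were 49.1 (43.4th) and 16.6 (44.6th). Between these sites and the third close pair was the longest stretch without plasmablast peaks in the window, 107 kb. The B cell list had 1 peak in it, chr11:32274991-32275295, which scored 30.6 (28.7th) and left a longest empty stretch of 75.2 kb. That peak was 32.2 kb from any plasmablast midpoint.

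The other unshared peaks of the alpha window were of low rank too. The second B cell only peak, chr11:32123360-32123664, scored 35.2 (33.3rd percentile). Plasmablast only peaks stood at chr11:32052903-32053081 (score 15.7, 42.6th percentile) and chr11:32101112-32101290 (8.4, 20.2nd). The latter lay 3.91 kb from the shared site with the widest percentile gap. Over both windows the 2 B cell only and 4 plasmablast only peaks all scored less than their list's median, and the closest any came to a peak of the other cell type was 3.91 kb. Weaker peaks were less often shared in both whole lists, so low ranks among unshared peaks are not particular to these windows. Outside the alpha window, a B cell peak at chr11:32400003-32400307 (71.3, 54.3rd) missed the distal edge by 0.154 kb and was not shared. The nearest outside peak on the proximal side, chr11:31900215-31900519 in B cells, was shared, and lay 132 kb from the first site inside.

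**Figure D2:**
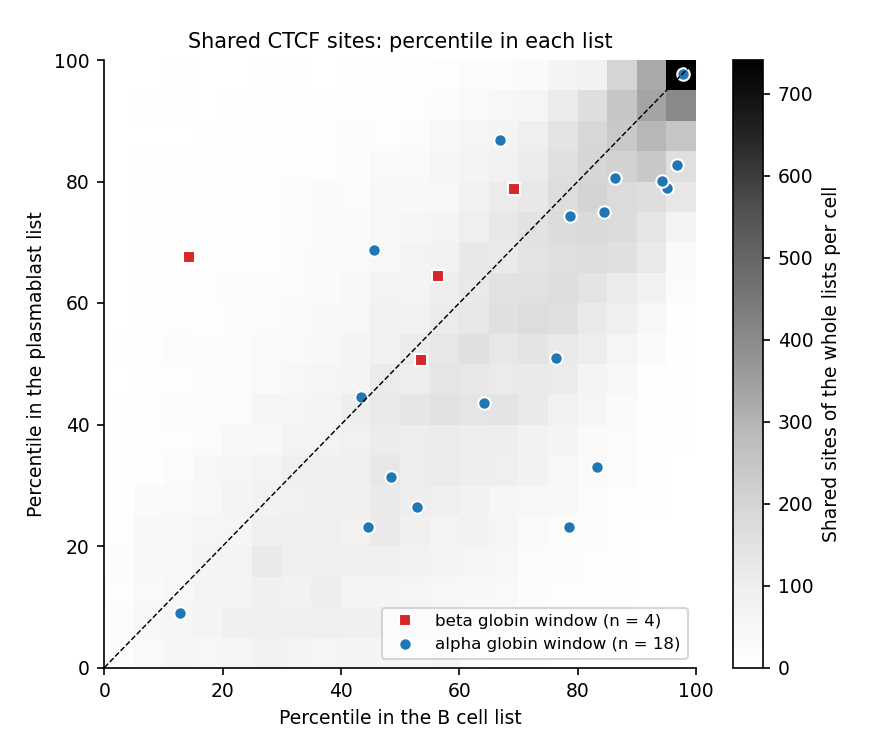
Percentile of shared CTCF sites in the B cell list (x axis) and in the plasmablast list (y axis). Grey cells give the number of shared sites of the whole lists, red squares the 4 sites of the beta globin window and blue circles the 18 of the alpha globin window; the dashed line marks equal percentiles. The beta site at the 14.4th and 67.5th percentiles stands apart at the left, and the alpha sites at -55.4 and -50.3 percentile points stand apart at the lower right. These sites were singled out after their values were seen.

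Taking the shared sites by window, those of the beta locus lay mostly higher in the plasmablast list and those of the alpha locus mostly higher in the B cell list. The plasmablast percentile exceeded the B cell percentile at 3 of 4 beta sites and at 3 of 18 alpha sites. Over all shared sites it did so at 33.8%, so the alpha count is below and the beta count above that share, with few sites in each. The median difference was 8.79 percentile points in the beta window (range -2.90 to 53.1) and -14.2 in the alpha window (range -55.4 to 23.3). Over all shared sites the median was -7.20, with quartiles of -21.3 and 4.21. Ranked among shared sites only, all 4 beta sites and 6 of 18 alpha sites stood higher in plasmablasts. The 33.8% and -7.20 come from ranks in the whole lists, and neither value was taken for ranks among shared sites only. The beta site at chr7:111061555-111061859 changed sign in that ranking, from -2.90 to 9.30, and also when ranked within its chromosome (1.40). The 3 alpha sites that changed sign, starting in B cells at 32138522, 32147105 and 32221250, went from -0.08, -3.89 and -4.49 to 0.39, 3.51 and 0.80. Over the 18 alpha sites the scores of both lists had a Spearman rank correlation of 0.73, against 0.70 over all shared sites. This describes sites of the same 2 libraries and carries no test.

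**Figure D3:**
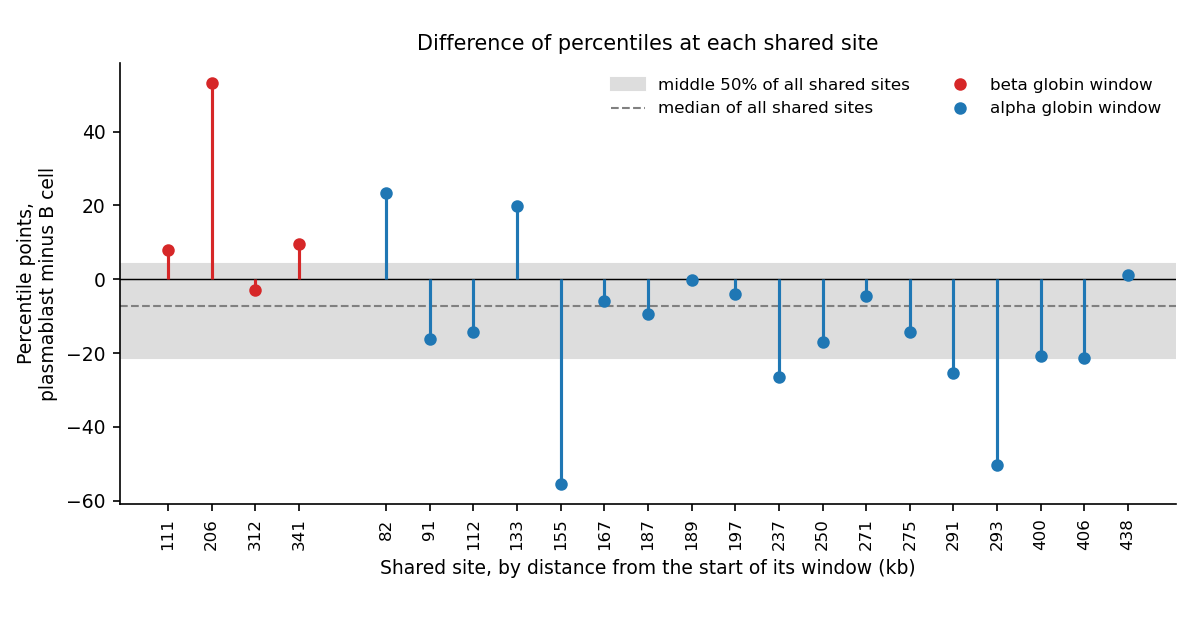
Plasmablast minus B cell percentile at each of the 22 shared sites (y axis, percentile points), ordered by window and labelled on the x axis by distance from the start of the window in kb. The grey band spans the quartiles of all shared sites (-21.3 to 4.21) and the dashed line is their median of -7.20. The largest departures are 53.1 in the beta window and -55.4 and -50.3 in the alpha window.

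Peak positions at the shared sites were close in the 2 lists. B cell peaks were 305 bp wide and plasmablast peaks here 179 bp wide, and the midpoints of shared sites lay a median of 12.5 bp apart in the beta window and 15.0 bp in the alpha window. The widest offsets were 64 bp and 62 bp, at the first beta site and at chr11:32350227-32350531. Over all shared sites the median was 17 bp.

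The 2 windows differed in the density of peaks. The alpha window held 44.4 peaks per Mb in either list, against 24.9 in B cells and 20.5 in plasmablasts over the span of chromosome 11. That is 1.78 and 2.16 times the chromosome's density. The beta window held 8 B cell and 12 plasmablast peaks per Mb, which is 0.48 and 0.86 times the density of chromosome 7. These ratios depend on the window's edges. Narrowed by 100 kb on both sides it held 13.3 and 20 per Mb, against 16.6 and 14.0 on the chromosome, so the plasmablast density was then the higher. The autosomes were also tiled in windows of the same length. Of 5333 tiles of 450 kb, with a median of 4 peaks in either list, 6.56% held more B cell peaks than the alpha window and 3.09% held more plasmablast peaks. Of 4797 tiles of 500 kb, 49.7% held more B cell peaks than the beta window and 38.9% held more plasmablast peaks. The beta window was thus close to the middle of the autosomal tiles, of which many held no peak at all.

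**Figure D4:**
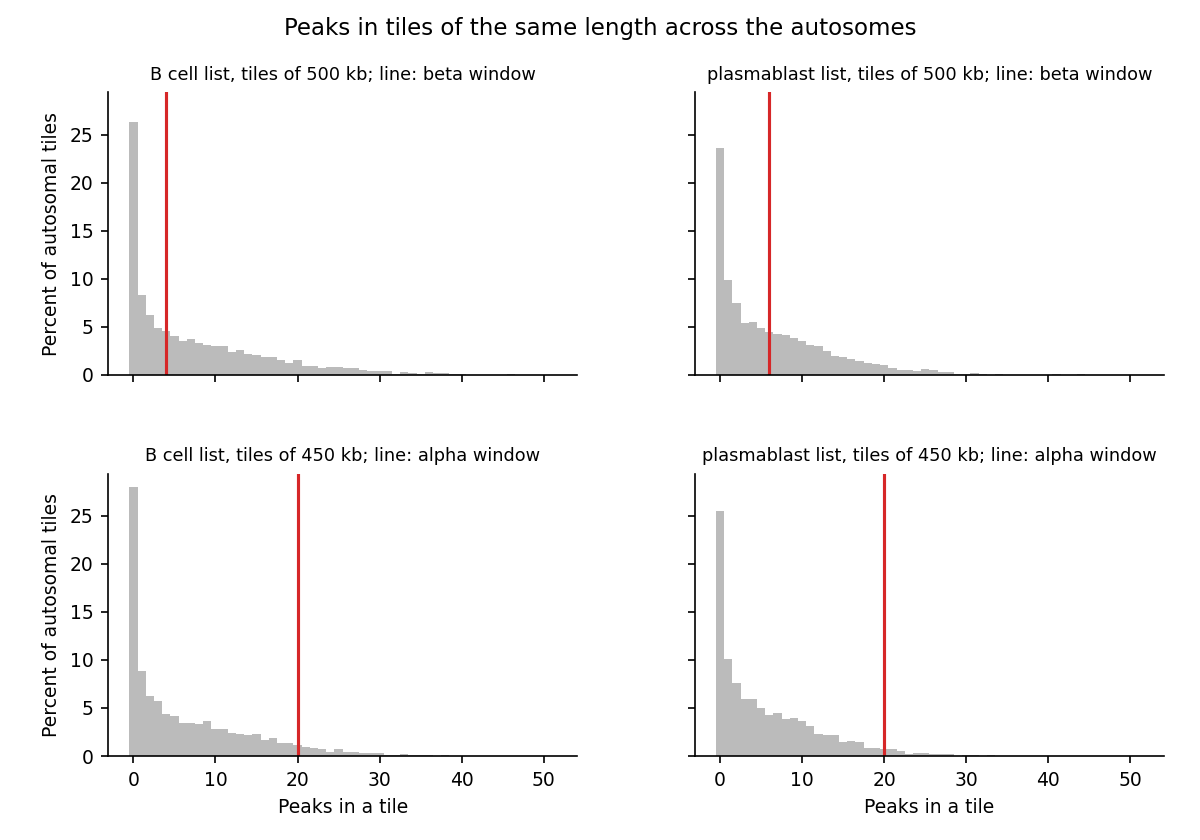
Number of peaks (x axis) in tiles of 500 kb (top) and 450 kb (bottom) across the autosomes, as a percentage of tiles (y axis), for the B cell list (left) and the plasmablast list (right). Red lines mark the beta globin window (4 and 6 peaks) and the alpha globin window (20 in each list), the latter in the upper tail of both lists.

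Spacing followed the same contrast. Neighbouring B cell peaks in the alpha window lay a median of 13.7 kb apart, and plasmablast peaks 11.9 kb, against 19.6 and 25 kb on the autosomes. In the beta window the medians were 94.8 and 39.9 kb. The 3 close pairs of shared sites made up the 3 of 19 B cell distances in the alpha window that were at most 4 kb (15.8%, against 11.5% on the autosomes). In plasmablasts 4 of 19 were that short (21.1%, against 12.4%), the fourth being the plasmablast only peak 3.92 kb from its shared neighbour. No beta distance was that short, the shortest being 14.0 kb in plasmablasts and 29.7 kb in B cells. The 4 kb limit was chosen later than the other rules, so the counts within it are a description and do not set the alpha window apart.

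Peaks of the alpha window had a higher median percentile in the B cell list than in the plasmablast list. B cell peaks there had a median score of 128.8 and a median percentile of 71.6, with 13 of 20 above the median score of the list. Plasmablast peaks had a median score of 18.2 and a median percentile of 47.8, with 10 of 20 above the median of theirs. Shared sites of the whole lists leaned the same way, with a median difference of -7.20 percentile points (plasmablast minus B cell). In the beta window the median percentiles were 55.0 in B cells and 57.6 in plasmablasts, with 3 of 4 and 4 of 6 peaks above the list's median. So in B cells the alpha peaks ranked above the beta peaks by their medians, and in plasmablasts they ranked below, though the ranges overlapped widely in both lists (12.8 to 97.9 and 14.4 to 69.2 in B cells, 8.92 to 97.8 and 25.8 to 78.8 in plasmablasts).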

How the data were processed

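CTCF chromatin immunoprecipitation sequencing peaks of 1 B cell and 1 plasmablast library were analysed as the authors deposited them, with a position and a score per peak. Bowtie, HOMER and build mm9 are named, per the submitters' processing notes. The sources used here do not give versions, thresholds, the use of input, the unit of the score or the depth. Starts were raised by 1 to count positions from 1. Sites were shared at an overlap of at least 1 bp, and pairing was one to one. The overlap routine was tested on simulated peaks placed wholly inside a B cell peak or far from any. Overlaps near 1 bp and close neighbours without overlap were not tried. Promoter sequences came from RefSeq (GRCm38.p6). All shared sites, the top unshared peaks and those beside the longest empty stretches were to be named; the remaining unshared peaks and those outside the windows were added. The 4 kb limit and the motif were chosen later than the other rules. The windows and gene lists were chosen with earlier results of these data known. Alternatives varied the overlap rule, the windows, the list threshold and the ranking. Python 3.11.15, numpy 2.4.6, pandas 2.3.3, scipy 1.17.1 and matplotlib 3.10.9 were used.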

Additional observations from a re-analysis of the deposited data

How the results depend on the processing

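The overlap rule did not move any count: 50% reciprocal overlap and midpoints within 100 or 500 bp each gave 4 shared beta sites, 18 shared alpha sites, 2 B cell only peaks and 4 in plasmablasts only. The list threshold did. Using just the peaks scoring above their list's median, 9 alpha sites were shared, from 13 B cell and 10 plasmablast peaks kept in that window. Fewer peaks were kept, so this count does not show less sharing. Over both windows 16 B cell and 14 plasmablast peaks were kept, of which 4 were in B cells only and 2 in plasmablasts only. These are 25% and 14.3%, against 31.9% and 20.7% of all peaks kept. The longest empty B cell stretch in the beta window was then 201 kb. With the 20000 highest scoring peaks of each list, chosen after seeing the data, 18 peaks of either list were kept over both windows. Among them 11 alpha sites were shared, and 4 of the 18 in either list were unshared (22.2%, against 23.3% of the 20000). Windows widened by 100 kb on both sides held 8 B cell only peaks of 36 (22.2%, against 32.1% of the whole list). Narrowed by 100 kb, the beta window held 13.3 B cell and 20 plasmablast peaks per Mb, against 16.6 and 14.0 on chromosome 7. Ranking within the chromosome put the median B cell percentile of the beta window at 49.3. Ranking among shared sites put the median percentile difference at 19.96 in the beta and -6.88 in the alpha window. The median of -7.20 over all shared sites comes from ranks in the whole lists and is no background for these medians. In all, 40 of 52 alternatives for counts, medians, densities and stretches stayed within 1.5 times the value or 5 percentile points, and 12 moved. At single sites 4 of 22 percentile differences changed sign when ranked among shared sites, and 1 when ranked within the chromosome. No paired analysis was possible because each cell type has 1 library, and for the same reason no alternative without a replicate exists. With unknown depth, an unlisted site may still be bound.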
